A study of Mus musculus with 112 samples.

Results

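Cd68, Adgre1, Csf1r, Itgam, Mpeg1, Tyrobp, Fcer1g, Cybb, Clec7a and Lyz2 are genes whose RNA marks macrophages and related myeloid cells in a mixed tissue. They are 10 of the 19938 genes measured here, and they were listed by name, with earlier results of these data known. The array held exactly 1 probe set with each of these symbols alone, so all 10 were measured, and no filter on dim signals was applied. Itgam also appears on 3 probe sets that carry a second gene, which were not used. All levels below are log2 array signals, on which a difference of 1 is a 2-fold difference in signal. Levels are compared between mice for the same gene, never between genes.

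The tissue was epididymal white adipose tissue (WAT) from 112 male mice, 1 array per mouse, with 8 mice on caloric restriction (CR) and 8 mice on the control diet in each of 7 strains. The strains were B6C3F1/J, CBA/J, C3H/HeJ, 129S1/SvImJ, DBA/2J, C57BL/6J (labelled C57BL6/J) and BALB/cJ (labelled Balbc/J), and B6C3F1/J is the first-generation hybrid of C57BL/6J and C3H/HeJ. Mice were housed singly from 6 weeks of age on a diet built on the AIN93M formula, either kept that diet as controls or were switched to CR at 8 weeks, and were killed at 22 weeks after a night without food. Feeding was not equal across strains. CR mice of 129S1/SvImJ and C57BL/6J had their ration lowered again part way through, whereas BALB/cJ CR mice were given the ration that control mice of B6C3F1/J, CBA/J, C3H/HeJ and DBA/2J received, and BALB/cJ control mice were given more. A difference between strains therefore holds the ration as well as the genotype, and for BALB/cJ, 129S1/SvImJ and C57BL/6J these cannot be told apart.

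Macrophages of adipose tissue take up dead adipocytes and lipid, and their number is known to be higher in obese fat, where they surround dying adipocytes. They arise and survive through the receptor encoded by Csf1r, which binds CSF1 and IL-34. Adgre1 encodes an adhesion G protein-coupled receptor and Itgam the integrin alpha chain CD11b, both surface proteins used to sort these cells. Clec7a encodes Dectin-1, a lectin that binds fungal beta-glucan. Tyrobp (DAP12) and Fcer1g (the Fc receptor gamma chain) are small adaptors that carry the activation motif ITAM for receptors that lack a signalling tail. The remaining genes encode effectors: Cd68 a glycoprotein of late endosomes and lysosomes, Mpeg1 the pore former perforin-2, Cybb the catalytic gp91phox subunit of the phagocyte NADPH oxidase, and Lyz2 the lysozyme of macrophages and neutrophils. None of these is specific to macrophages alone, since dendritic cells, monocytes and neutrophils share several of them, and mast cells use Fcer1g.

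Promoter windows from RefSeq (build GRCm38.p6, 250 bases before to 50 bases after the gene start) were at hand for 7 of the 10 genes, Cd68, Itgam, Mpeg1, Fcer1g, Cybb, Clec7a and Lyz2. The windows of Cd68 and Mpeg1, the genes with the largest mean CR difference, and of Itgam, the gene with the smallest, are shown because the 3 genes mark the ends of the range described below. Capitals mark the PU box GAGGAA, the core bound by PU.1 (the product of Spi1), and the AP-1 element TGANTCA, searched on both strands. The 2 motifs did not overlap in these windows.
Cd68 (chr11:69666121-69666420, minus strand): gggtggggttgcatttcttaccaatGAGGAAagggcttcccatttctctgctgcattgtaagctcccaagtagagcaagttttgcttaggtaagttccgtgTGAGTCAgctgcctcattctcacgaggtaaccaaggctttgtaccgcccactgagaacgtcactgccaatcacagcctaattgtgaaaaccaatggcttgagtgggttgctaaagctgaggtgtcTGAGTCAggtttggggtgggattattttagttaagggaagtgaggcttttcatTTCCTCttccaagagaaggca
Mpeg1 (chr19:12460520-12460819, plus strand): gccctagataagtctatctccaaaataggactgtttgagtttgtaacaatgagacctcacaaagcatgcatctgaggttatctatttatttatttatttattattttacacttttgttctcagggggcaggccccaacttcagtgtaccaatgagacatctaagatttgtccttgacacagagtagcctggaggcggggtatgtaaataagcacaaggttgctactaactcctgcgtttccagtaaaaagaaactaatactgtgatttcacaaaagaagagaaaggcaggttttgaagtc
Itgam (chr7:128062390-128062689, plus strand): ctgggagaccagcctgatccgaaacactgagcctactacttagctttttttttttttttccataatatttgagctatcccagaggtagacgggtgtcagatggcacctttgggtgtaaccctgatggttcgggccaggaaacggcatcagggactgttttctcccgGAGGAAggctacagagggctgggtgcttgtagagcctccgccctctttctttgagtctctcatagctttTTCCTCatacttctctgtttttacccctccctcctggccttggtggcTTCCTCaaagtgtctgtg
The window of Itgam held 3 PU boxes and no AP-1 element, that of Cd68 held 2 of each, and that of Mpeg1 held neither. A PU box was present in 4 of the 7 windows (Cd68, Itgam, Cybb and Clec7a), against 28.3% of 32851 RefSeq windows of the same length, and an AP-1 element in 2 of 7 (Cd68 and Cybb), against 7.8%. A match is a stretch of letters and no measurement of binding.

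Array medians lay between 6.72 and 6.86. The normalization gives arrays 1 distribution, so these medians do not measure how even the RNA input was. The mean of 9 adipocyte markers had group means between 12.47 and 12.85 in all 14 groups. Some pads carried RNA of the epididymis, the organ that this fat pad is attached to. The mean of 17 epididymis markers was more than 1 log2 unit above the median of all arrays in 8 arrays, 2 CR arrays each of C57BL/6J, CBA/J and DBA/2J and 2 control arrays of DBA/2J. The highest 2 were C57BL/6J CR mouse 2, at 11.33, and CBA/J CR mouse 5, at 11.11, which also had the lowest means of the 10 genes, 8.13 and 8.17. The same 2 arrays were the lowest in adipocyte markers, at 11.54 and 12.10 against a median of 12.68 over all arrays, and in endothelial markers, at 8.52 and 8.94 against 9.76. The part of this difference in tissue make-up in the results was not tested. The number of the 10 genes lower on CR, and the number whose groups do not overlap, are given again without the 8 arrays for these 3 strains.

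All 10 genes were lower on CR in the mean over the 7 strains (10 of 10, adjusted p between 3.2e-28 and 2.1e-10 from limma, against 22.0% of all genes lower). Their median difference was -0.85, against 0.01 for all genes. Mpeg1 differed by -1.23 (SE 0.073) and Cd68 by -1.18 (SE 0.076), and at the other end Csf1r differed by -0.58 (SE 0.051) and Itgam by -0.49 (SE 0.065). Without the 8 arrays with clear epididymis signal all 10 were still lower. Cd68 was among the genes that the study picked from these arrays for follow-up, so its direction is not independent evidence. In bulk tissue, fewer myeloid cells and less of each RNA per cell cannot be told apart.

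**Figure D1:**
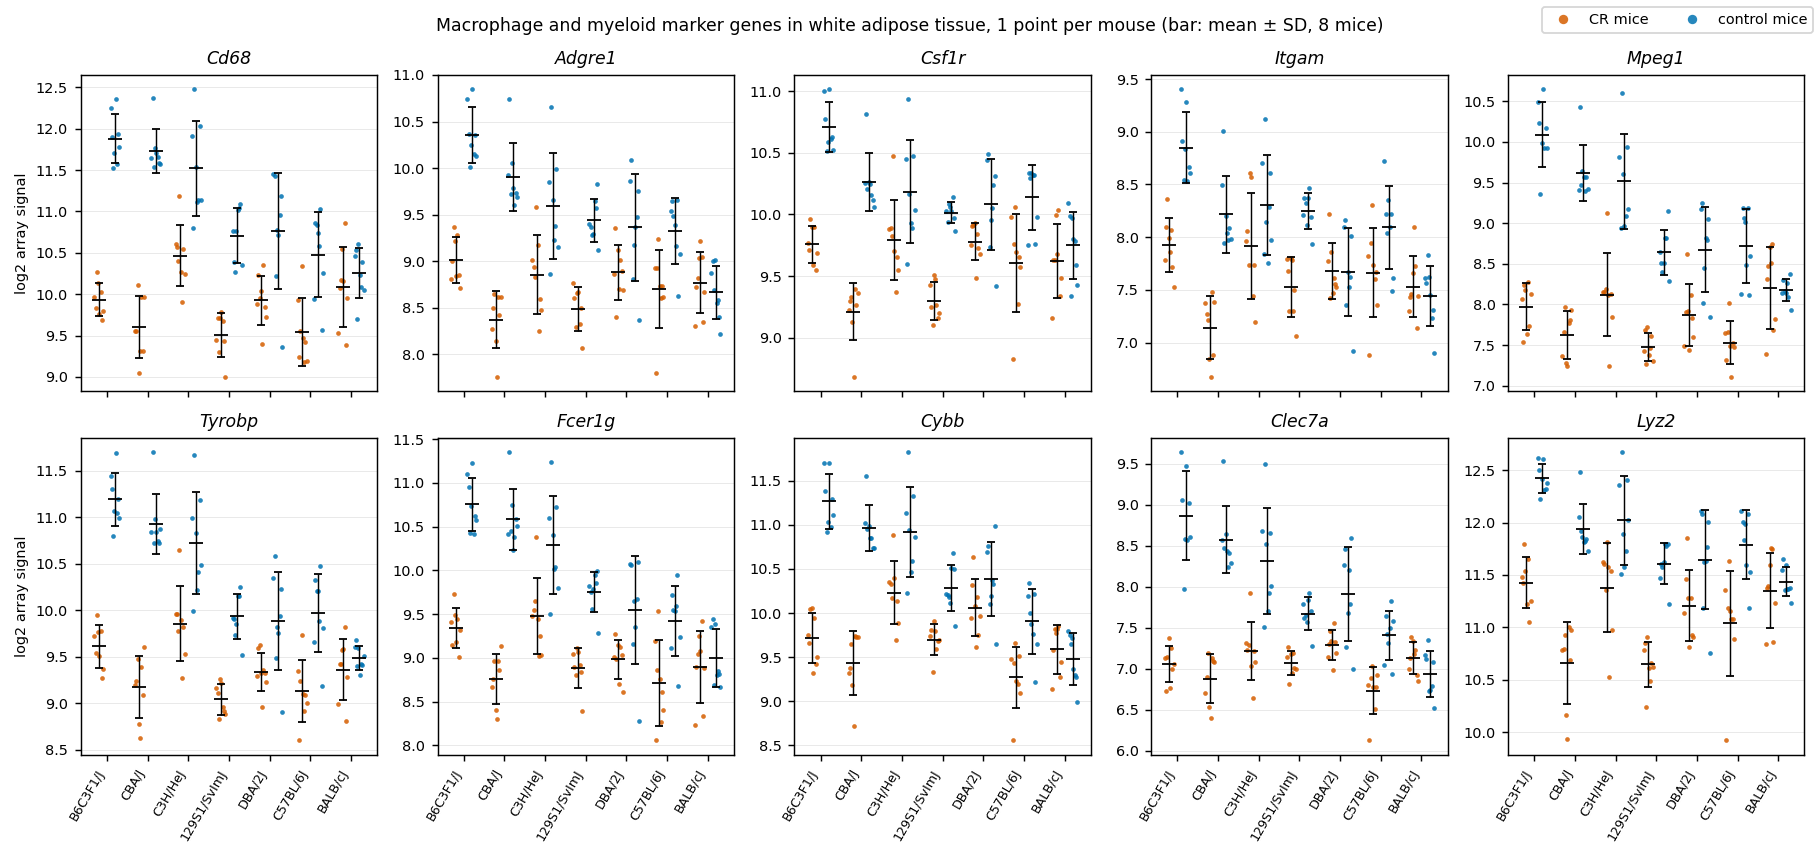
log2 array signal (vertical axes, a range of its own for each gene) of the 10 genes in each mouse, by strain (horizontal axis) and diet, with CR mice in orange left of control mice in blue, and each group's mean ± SD drawn as a bar (n = 8). In CBA/J and B6C3F1/J the CR and control points do not overlap for any of the 10 genes, and in BALB/cJ they overlap for all 10.

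The growth factor receptor and the surface markers differed in how far they fell. Csf1r in CBA/J had a lowest, median and highest signal of 8.68, 9.28 and 9.40 in CR mice, against 10.06, 10.23 and 10.82 in control mice, so every CR mouse lay below every control mouse (difference -1.05, SE 0.109, adjusted p = 2.7e-06). In C57BL/6J the same gene had 8.83, 9.68 and 10.06 in CR mice, against 9.75, 10.31 and 10.34 in control mice. Those groups overlapped, and 5 of 8 CR mice were below every control mouse (difference -0.54, SE 0.156, adjusted p = 0.025). Csf1r passed the test in 4 strains, the next to fewest of the 10 genes.

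Adgre1 passed in 5 strains. It had 8.71, 8.93 and 9.37 in B6C3F1/J CR mice (lowest, median, highest), against 10.01, 10.30 and 10.85 in B6C3F1/J control mice, a difference of -1.35 (SE 0.126, adjusted p = 2.5e-07). In BALB/cJ it had 8.31, 8.78 and 9.22 in CR mice, against 8.22, 8.64 and 9.02 in control mice, with a difference of 0.10 (SE 0.140, adjusted p = 0.86). This receptor's transcript separated the diets fully in the hybrid and not in BALB/cJ.

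Itgam passed in 3 strains, the fewest of the 10 genes. In CBA/J it had 6.68, 7.24 and 7.48 in CR mice, against 7.95, 8.06 and 9.01 in control mice (difference -1.07, SE 0.153, adjusted p = 6.6e-05). The DBA/2J groups lay on top of each other, at 7.43, 7.58 and 8.22 in CR mice, against 6.92, 7.64 and 8.16 in control mice, with a difference of 0.01 (95% confidence interval -0.33 to 0.35, adjusted p = 0.99). CD11b is carried by monocytes and neutrophils as well as macrophages. The gene missed the threshold also in C57BL/6J (-0.43, adjusted p = 0.13) and C3H/HeJ (-0.39, adjusted p = 0.28).

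Clec7a, the Dectin-1 gene, had 6.73, 7.10 and 7.38 in B6C3F1/J CR mice, against 7.98, 8.82 and 9.64 in B6C3F1/J control mice. No values overlapped, and the difference was -1.81 (SE 0.188, adjusted p = 7.6e-07). In 129S1/SvImJ the groups were separated by a narrow margin, with a highest CR signal of 7.27 and a lowest control signal of 7.28 (difference -0.60, SE 0.084, adjusted p = 2.8e-05). BALB/cJ was the strain in which its signal was nominally higher, at 6.86, 7.16 and 7.39 in CR mice, against 6.52, 6.94 and 7.36 in control mice (difference 0.20, 95% confidence interval -0.04 to 0.43, adjusted p = 0.69).

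Both ITAM adaptors passed in 5 strains and moved by like amounts. Tyrobp had 8.63, 9.22 and 9.60 in CBA/J CR mice, against 10.72, 10.84 and 11.70 in CBA/J control mice (difference -1.75, SE 0.151, adjusted p = 4.6e-07). Fcer1g had 8.30, 8.81 and 9.14 in CBA/J CR mice, against 10.23, 10.48 and 11.35 in CBA/J control mice (difference -1.82, SE 0.146, adjusted p = 2.6e-07). Neither gene had a CR mouse that reached the control range in that strain. In C57BL/6J the differences were -0.84 (adjusted p = 0.0031) for Tyrobp and -0.71 (adjusted p = 0.023) for Fcer1g, and both genes' groups overlapped.

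Of the effector genes, Cd68 had the largest single difference. Its signal in CBA/J was 9.05, 9.55 and 10.11 in CR mice, against 11.54, 11.65 and 12.37 in control mice (difference -2.13, SE 0.150, adjusted p = 8.9e-08). Converted from the mean log2 signals, the geometric mean on CR was 22.9% of that on the control diet. In B6C3F1/J it was 9.68, 9.90 and 10.27 in CR mice, against 11.52, 11.84 and 12.36 in control mice (difference -1.95, SE 0.118, adjusted p = 2.8e-09). Both strains left a gap of over 1 log2 unit between the highest CR mouse and the lowest control mouse. Cd68 in BALB/cJ was 9.38, 10.12 and 10.86 in CR mice, against 9.69, 10.31 and 10.61 in control mice, ranges that cover each other (difference -0.17, SE 0.181, adjusted p = 0.81).

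Mpeg1, the perforin-2 gene, was the gene whose diets did not overlap in C57BL/6J, where the other 9 genes overlapped. Its signals there were 7.11, 7.51 and 8.02 in CR mice, against 8.11, 8.81 and 9.19 in control mice (difference -1.19, SE 0.171, adjusted p = 0.00018). In B6C3F1/J they were 7.54, 8.09 and 8.27 in CR mice, against 9.36, 10.08 and 10.65 in control mice (difference -2.12, SE 0.158, adjusted p = 2.7e-08). The BALB/cJ values were 7.39, 8.39 and 8.75 in CR mice, against 7.94, 8.16 and 8.38 in control mice. CR mice of that strain were the more scattered group (SD 0.507 on CR, 0.139 on control), with 3 mice below and 4 mice above the whole control range.

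Cybb, the oxidase gene, fell in 5 strains, from -1.55 (SE 0.136) in B6C3F1/J to -0.59 (SE 0.104) in 129S1/SvImJ, where it was the single gene whose groups overlapped. In C3H/HeJ it had 9.70, 10.25 and 10.89 in CR mice, against 10.23, 10.90 and 11.82 in control mice (difference -0.69, SE 0.197, adjusted p = 0.023). Lyz2, the lysozyme gene, had 10.24, 10.64 and 10.91 in 129S1/SvImJ CR mice, against 11.23, 11.61 and 11.80 in 129S1/SvImJ control mice (difference -0.96, SE 0.096, adjusted p = 8.2e-07). Its near-identical copy Lyz1 differed by -0.76 in the mean over strains (SE 0.076), and probes can be shared between the 2 genes, so Lyz2 values may hold Lyz1 RNA.

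**Figure D2:**
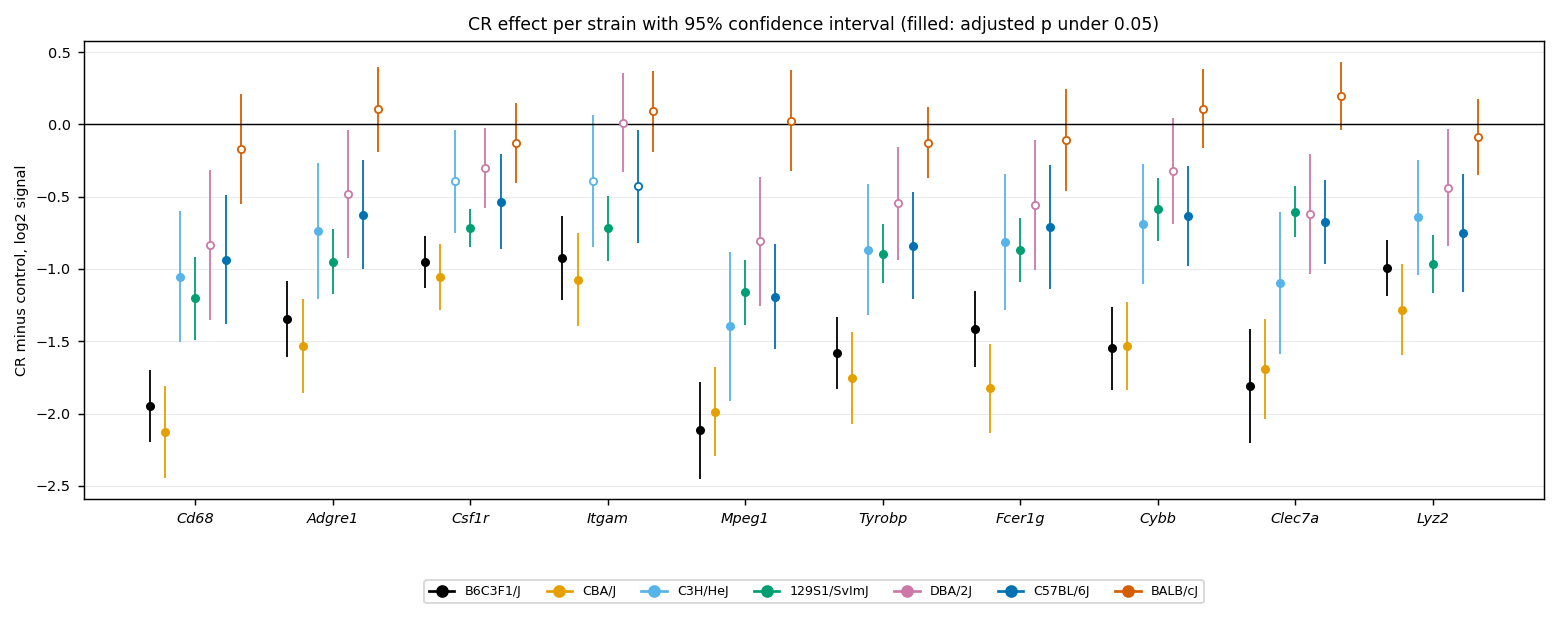
CR minus control difference in log2 signal (vertical axis) for each of the 10 genes (horizontal axis) in 7 strains (colours), with 95% confidence intervals from limma and filled points where the adjusted p was under 0.05. CBA/J and B6C3F1/J lie lowest for every gene, and the BALB/cJ intervals include 0 for all 10 genes.

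Read strain by strain, the 10 genes fell together most in CBA/J and B6C3F1/J. In CBA/J all 10 were lower (12.5% of all genes lower), with a median difference of -1.61 and geometric CR means at 22.9% to 48.1% of control. In B6C3F1/J all 10 were lower (16.4% of all genes lower), with a median of -1.48 and geometric CR means at 23.1% to 52.7%. No gene's groups overlapped in either strain (10 of 10 in each, against 5.69% of all genes with every CR mouse below every control mouse in CBA/J and 5.69% in B6C3F1/J). Without the 2 CBA/J CR arrays with epididymis signal all 10 were lower (2879 of all 19938 genes), from -2.14 for Cd68 to -0.998 for Csf1r, and no gene's groups overlapped (8.11% of all genes). CBA/J control mouse 2 was the highest of its group for all 10 genes, where the other 7 control mice had 10-gene means of 10.08 to 10.32, and without it all 10 remained lower (2196 of all 19938 genes), from -2.04 for Cd68 to -0.96 for Itgam.

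In 129S1/SvImJ all 10 genes were lower (15.4% of all genes lower), with a median difference of -0.88, and the groups of 9 genes did not overlap (4.31% of all genes). Spreads in this strain were small, with an SD of the 10-gene mean of 0.170 in CR mice and 0.199 in control mice. No array of this strain had clear epididymis signal.

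C57BL/6J and C3H/HeJ had smaller and more scattered differences. In C57BL/6J 9 genes were lower (7.31% of all genes lower), all but Itgam, with a median difference of -0.69, and 1 gene's groups did not overlap (1.87% of all genes). Epididymis markers were above 3 scaled median absolute deviations in 7 of the 8 C57BL/6J CR arrays and in 0 control arrays. Leaving out the 2 with clear signal gave 9 genes lower again (9.60% of all genes), all but Itgam, from -1.18 for Mpeg1 to -0.43 for Csf1r. The groups of 1 gene then did not overlap (2.63% of all genes). Leaving out all 7 left 1 CR array, assumed to vary like the control arrays, and a median difference of -0.433 for the 10 genes. In C3H/HeJ 8 genes were lower (6.87% of all genes lower), all but Csf1r and Itgam, with a median of -0.78. No gene's groups were apart there (0 of 10, against 0.492% of all genes), and the SD of the 10-gene mean was 0.387 in CR mice and 0.523 in control mice. Under the study's own kind of test, run on the raw signal, 2 of the 10 passed after adjustment in this strain (5.45% of all genes lower). They were Cd68 (adjusted p = 0.0346) and Mpeg1 (adjusted p = 0.0248). The study's own threshold was an unadjusted p under 0.01, which 5 of the 10 reached in this test (3126 of all 19938 genes).

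In DBA/2J no gene passed at an adjusted p under 0.05 (0 of 10, against 0.396% of all genes lower), although 9 of 10 differences were negative. By the unadjusted p from limma 8 genes were under 0.05 (15.1% of all genes), and Cd68, Clec7a, Mpeg1 and Tyrobp were under 0.01 (4 of 10 lower, against 2.88% of all genes). The intervals were wide: Mpeg1 differed by -0.81 (95% confidence interval -1.25 to -0.36) and Cd68 by -0.83 (-1.35 to -0.32). DBA/2J control mouse 8 was the lowest of its group for all 10 genes, with a mean of 8.65 against 9.13 to 10.14 in the other 7 mice. Without that mouse 5 genes were lower (0.903% of all genes), Cd68 (-1.03), Mpeg1 (-0.93), Fcer1g (-0.74), Clec7a (-0.75) and Tyrobp (-0.69). Epididymis signal was clear in 2 CR and 2 control arrays of this strain, and without those 4 arrays 0 genes passed (0.828% of all genes lower), with Mpeg1 at -0.94 and Cd68 at -0.98, and every gene's groups overlapped (1.14% of all genes did not). The count in this strain depended on the model, with 4 genes lower in 1 model of the 14 groups (2.56% of all genes) and 8 with array weights (4.58% of all genes).

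In BALB/cJ no gene passed (0 of 10, with 0% of all genes called in either direction), and 0 of the 10 reached an unadjusted p under 0.05, a level that 7.52% of all genes reached. Of the differences 5 were negative and 5 positive, from -0.17 for Cd68 to 0.20 for Clec7a. The 95% confidence intervals of the 10 genes reached down to -0.55 (Cd68) and up to 0.43 (Clec7a), so decreases of the size seen in CBA/J lay outside them. Under the study's own kind of test, run here on the raw signal, 0 of the 10 passed after adjustment as well.

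Cd68, Clec7a, Mpeg1 and Tyrobp were the 4 genes lower at an unadjusted p under 0.01 from limma in at least 6 strains. Of all genes 0.953% were. BALB/cJ was the strain these 4 genes missed. The count depended on the test. With the study's own kind of test, run on the raw signal, 2 of the 10 reached that level in DBA/2J (1198 of all 19938 genes). In BALB/cJ 0 of the 10 did (226 of all genes). At most 2 of the 10 could therefore meet the 6-strain count with that test.

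The CR difference itself was compared between strains in 1 model of the 14 groups. An F-test found a difference between strains for all 10 genes (10 of 10, against 19.0% of all genes), most clearly for Clec7a (adjusted p = 1.6e-09) and least for Lyz2 (adjusted p = 0.0009). Set against the mean of the other 6 strains, the BALB/cJ difference was less negative for all 10 genes (2.52% of all genes had a higher difference in BALB/cJ), by 0.53 for Csf1r up to 1.47 for Mpeg1. The CBA/J difference was more negative for all 10 (5.17% of all genes), by -0.55 for Csf1r to -1.10 for Cd68. In B6C3F1/J it was more negative for 6 (2.28% of all genes), Clec7a, Mpeg1, Cybb, Cd68, Tyrobp and Adgre1. None of the 10 passed this test in 129S1/SvImJ, C3H/HeJ, C57BL/6J or DBA/2J, where 4.55%, 0.0802%, 5.13% and 0.667% of all genes passed. By limma's unadjusted p, 0 of the 10 were under 0.05 in 129S1/SvImJ, C3H/HeJ and C57BL/6J, a level that 20.8%, 5.32% and 21.3% of all genes reached, and 5 were in DBA/2J (13.8% of all genes). With BALB/cJ left out, the F-test passed for 9 genes (20.9% of all genes).

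**Figure D3:**
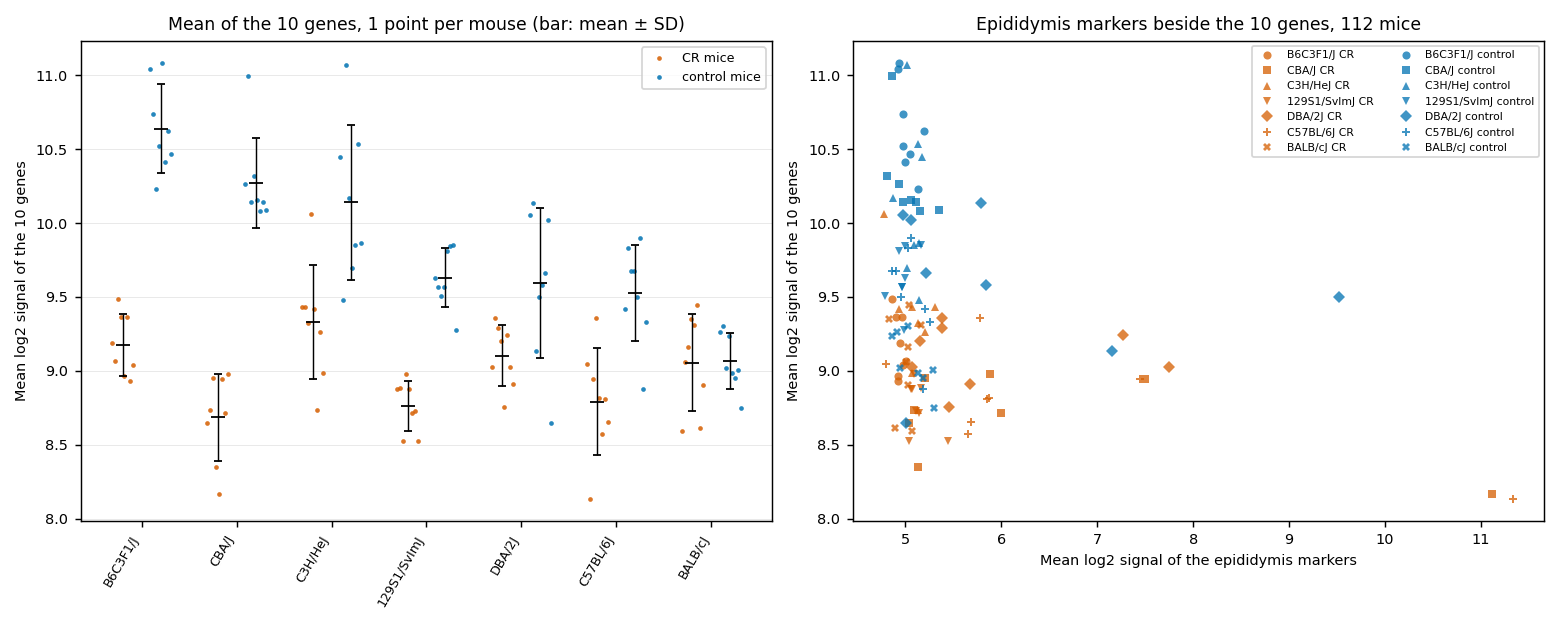
Left, the mean log2 signal of the 10 genes (vertical axis) in each mouse by strain, CR mice in orange left of control mice in blue, each group's mean ± SD being drawn as a bar (n = 8). Right, the same mean against the mean log2 signal of the 17 epididymis markers (horizontal axis) in all 112 mice, where the 2 mice above 11 on the horizontal axis have the 2 lowest means of the 10 genes.

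On the control diet the strains were far apart in these genes. The F-test between strains passed for all 10 (10 of 10, against 58.8% of all genes), so a strain difference as such was the rule across the array. B6C3F1/J had the highest control mean and BALB/cJ the lowest for every one of the 10 genes. The mean of the 10 genes in control mice was 10.64 ± 0.301 in B6C3F1/J, 10.27 ± 0.304 in CBA/J, 10.14 ± 0.523 in C3H/HeJ, 9.63 ± 0.199 in 129S1/SvImJ, 9.59 ± 0.508 in DBA/2J, 9.53 ± 0.327 in C57BL/6J and 9.06 ± 0.191 in BALB/cJ (SD, n = 8). Array probes follow a reference sequence, and the part of strain sequence differences under the probes was not tested.

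Against the mean of the other strains, B6C3F1/J control mice were higher for 10 of 10 genes (10.3% of all genes), by 0.64 for Csf1r to 1.20 for Mpeg1, and BALB/cJ control mice were lower for 10 of 10 (14.5% of all genes), by -0.47 for Lyz2 to -1.19 for Clec7a. CBA/J was higher for 7 (12.4% of all genes), or for 6 without control mouse 2, and C3H/HeJ was higher for 5 (9.38%). C57BL/6J was lower for 6 (14.6%), DBA/2J for 4 (11.5%) and 129S1/SvImJ for 2 (12.2%). Neighbours in this order were often not separable. C3H/HeJ against CBA/J gave 0 of 10 (9.71% of all genes), with intervals of the difference from -0.70 to 0.44 and 0 genes at an unadjusted p under 0.05 in limma (17.3% of all genes). 129S1/SvImJ against C57BL/6J gave 0 of 10 (20.9%), with 1 gene at an unadjusted p under 0.05 (30.9% of all genes), and C57BL/6J against DBA/2J gave 1, Cybb (25.7%). B6C3F1/J was above CBA/J for 3 genes, Csf1r, Itgam and Lyz2 (6.01% of all genes higher), and BALB/cJ was below C57BL/6J for 4, Adgre1, Csf1r, Itgam and Mpeg1 (11.4% lower).

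The hybrid could be set beside both parents. B6C3F1/J control mice were above C57BL/6J control mice for all 10 genes (10.8% of all genes higher), by 0.57 for Csf1r to 1.46 for Clec7a. They were above C3H/HeJ control mice for 5 (4.75% of all genes higher), Adgre1 (0.76), Mpeg1 (0.57), Itgam (0.55), Csf1r (0.52) and Lyz2 (0.40), and the other 5 differences were positive too, at 0.34 to 0.55, without passing.

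On CR the strains lay closer together. For Clec7a the strain means spanned 0.56 log2 units in CR mice, from 6.73 in C57BL/6J to 7.29 in DBA/2J, and 1.93 in control mice, from 6.94 in BALB/cJ to 8.87 in B6C3F1/J. The span was narrower on CR for all 10 genes, at 0.289 times the control span for Clec7a to 0.794 times for Lyz2, as a description with no test. Strains still differed on CR for 10 of 10 genes (F-test, 54.0% of all genes). BALB/cJ, lowest of all on the control diet, was above the mean of the other strains for Mpeg1 on CR (0.44, adjusted p = 0.02) and passed for no other gene (1 of 10, against 8.31% of all genes higher). C3H/HeJ CR mice were higher for 4 genes, Cd68 (0.70), Cybb (0.60), Tyrobp (0.58) and Fcer1g (0.55), where 11.3% of all genes were. CBA/J CR mice were lower for 5 (9.56% of all genes), Adgre1, Csf1r, Itgam, Cybb and Lyz2. 129S1/SvImJ CR mice were lower for 5 as well and C57BL/6J CR mice for 3. B6C3F1/J CR mice were higher for 1 and DBA/2J CR mice for 2. The shares of all genes are not given for these other strains, so their counts cannot be set against a background. The CR difference and the control level share the control arrays, so they are not independent, and no correlation between them is given.

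Diet, strain and mouse took different shares of the variation in the 10 genes. Diet took from 20.9% (Itgam) to 50.8% (Mpeg1) of the sum of squares, strain from 16.4% (Mpeg1) to 31.1% (Cybb), and strain by diet from 10.2% (Lyz2) to 19.6% (Clec7a). Differences between mice of the same group took 17.8% for Mpeg1 to 37.4% for Itgam.

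Mice of the same group varied in all 10 genes at once. After each group's mean was removed, Pearson's r over the 112 arrays was between 0.624 (Itgam with Mpeg1) and 0.925 (Tyrobp with Fcer1g) for the 45 pairs. Itgam stood furthest from the rest, with a median r of 0.773 to the other 9 genes, and Tyrobp nearest, with 0.889. These arrays share tissue composition, dissection and RNA quality, and r is given as a description. The 10-gene mean and the epididymis marker mean had r = -0.261 on the same arrays.

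**Figure D4:**
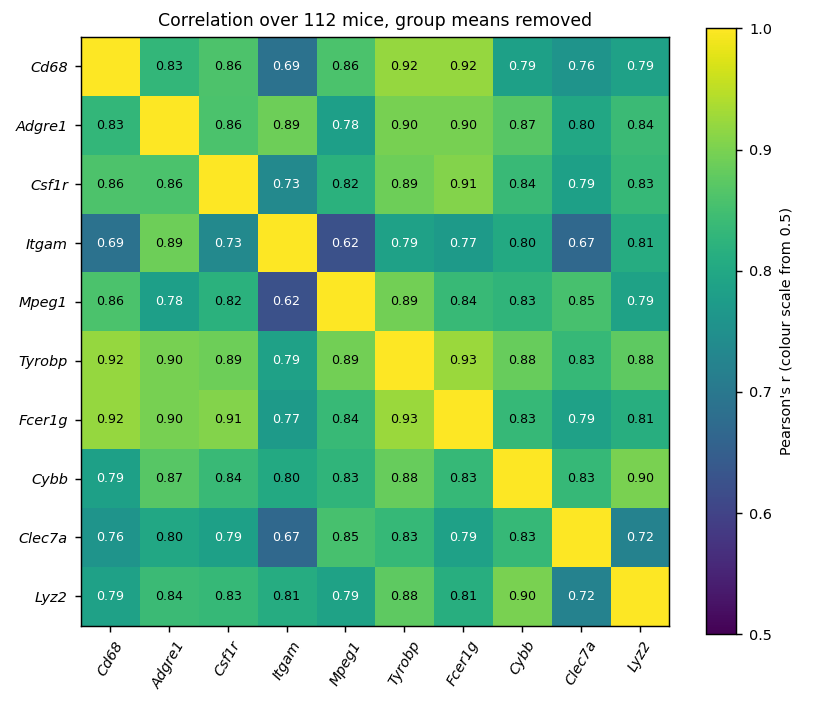
Pearson's r between each pair of the 10 genes over 112 mice after the mean of each of the 14 groups was removed, on a colour scale from 0.5 to 1. The adaptors Tyrobp and Fcer1g share the highest value, 0.93, and Itgam with Mpeg1 the lowest, 0.62.

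The 8 genes outside the list that followed the 10-gene mean most closely over these 112 group-centred arrays were Igsf6 (r = 0.954), Spi1 (0.950), C3ar1 (0.941), Itgb2 (0.936), Dpep2 (0.935), Myo1f (0.930), Fcgr3 (0.916) and Nckap1l (0.916). The median r over all 19928 other genes was -0.044. Spi1 encodes PU.1, a transcription factor of the myeloid lineage, C3ar1 the receptor for complement C3a, Itgb2 the beta2 chain that pairs with CD11b, Fcgr3 an IgG receptor that signals through the Fc receptor gamma chain, and Nckap1l a part of the actin-regulating WAVE complex of blood cells. Gene by gene, the closest partners were C3ar1 for Cd68 (0.901), Dpep2 for Adgre1 (0.920), C1qc, a chain of complement C1q, for Csf1r (0.921), the scavenger receptor gene Msr1 for Itgam (0.833), the cathepsin S gene Ctss for Mpeg1 (0.935), Spi1 for Tyrobp (0.937) and Fcer1g (0.929), Itgb2 for Cybb (0.920) and Lyz2 (0.929), and the lectin gene Clec12a for Clec7a (0.876).

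Lists of genes that work with the 10 were counted in the same mean over strains, in which 22.0% of all genes were lower and 21.9% higher. The list named CSF1 receptor ligands and partners also holds receptor genes of other growth factors, Csf2ra, Csf2rb, Csf2rb2 and Csf3r. Of its 10 genes 8 were lower and 0 higher, with a median of -0.28. Among them were the GM-CSF receptor gene Csf2ra (-0.61) and the ubiquitin ligase gene Cbl (-0.29). Of the ligands of the Csf1r receptor, named after their values were seen, Csf1 was lower (-0.32, adjusted p = 4.6e-14) and Il34 did not pass (-0.02, adjusted p = 0.69). Of 11 myeloid transcription factors 8 were lower, among them Spi1 (-1.03) and Irf5 (-0.66), and 2 higher, Cebpb (0.11) and Cebpa (0.10), which adipocytes also express.

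Of 16 ITAM receptors and signalling proteins 13 were lower and 0 higher, with a median of -0.26, among them Trem2 (adjusted p = 2.4e-25), a lipid receptor that signals through Tyrobp, and Cd300ld (-0.85). Of 6 Fc receptors 4 were lower and 0 higher, among them Fcgr3 (-0.77) and Fcgr4 (-0.51). For the beta2 integrins and partners 5 of 7 were lower, among them the CD11c gene Itgax (-1.45) and Itgb2 (-1.03), and Itgad was higher (0.16).

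Of the 6 other NADPH oxidase subunits 5 were lower and 0 higher, with a median of -0.53, among them Cyba (-0.74), which encodes the p22phox partner of gp91phox, and Ncf4 (-0.60). Of 11 C-type lectin receptors 9 were lower and 0 higher, with Clec12a at -1.14 and Clec4a2 at -0.79. Of 10 lysosomal and killing proteins 7 were lower and 1, the cathepsin D gene Ctsd (0.08), was higher, with Ctss at -1.19 and the legumain gene Lgmn at -0.62. The pan-leukocyte genes, shared by all white blood cells, were lower for 15 of 15, with a median of -0.65, among them Nckap1l (-0.91).

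In BALB/cJ none of these lists had a gene that passed in either direction (0% of all genes). In B6C3F1/J 15 of 15 pan-leukocyte genes and 13 of 16 ITAM genes were lower (16.4% of all genes). In CBA/J 15 of 15 and 11 of 16 were (12.5%), and in C57BL/6J 11 of 15 and 6 of 16 (7.31%). In DBA/2J 1 gene of these lists was lower, a C-type lectin receptor gene. Without the arrays with clear epididymis signal these CBA/J and DBA/2J counts were the same. The C57BL/6J counts were then 14 of 15 and 7 of 16 (9.60% of all genes). In the pan-leukocyte, B cell and T cell lists the highest DBA/2J CR array stood well above its group mean. For pan-leukocyte genes it was at 9.94 (group mean 8.52), against 9.02 for the highest DBA/2J control array (SD 0.593 on CR, 0.246 on control). For B cell markers the highest array was at 9.33 on CR (group mean 6.77) and 6.97 on control. For T cell markers it was at 8.60 on CR (group mean 6.73) and 6.92 on control. Whether the same mouse was highest in each list is not shown. The part of this signal in the DBA/2J counts of these lists was not tested.

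**Figure D5:**
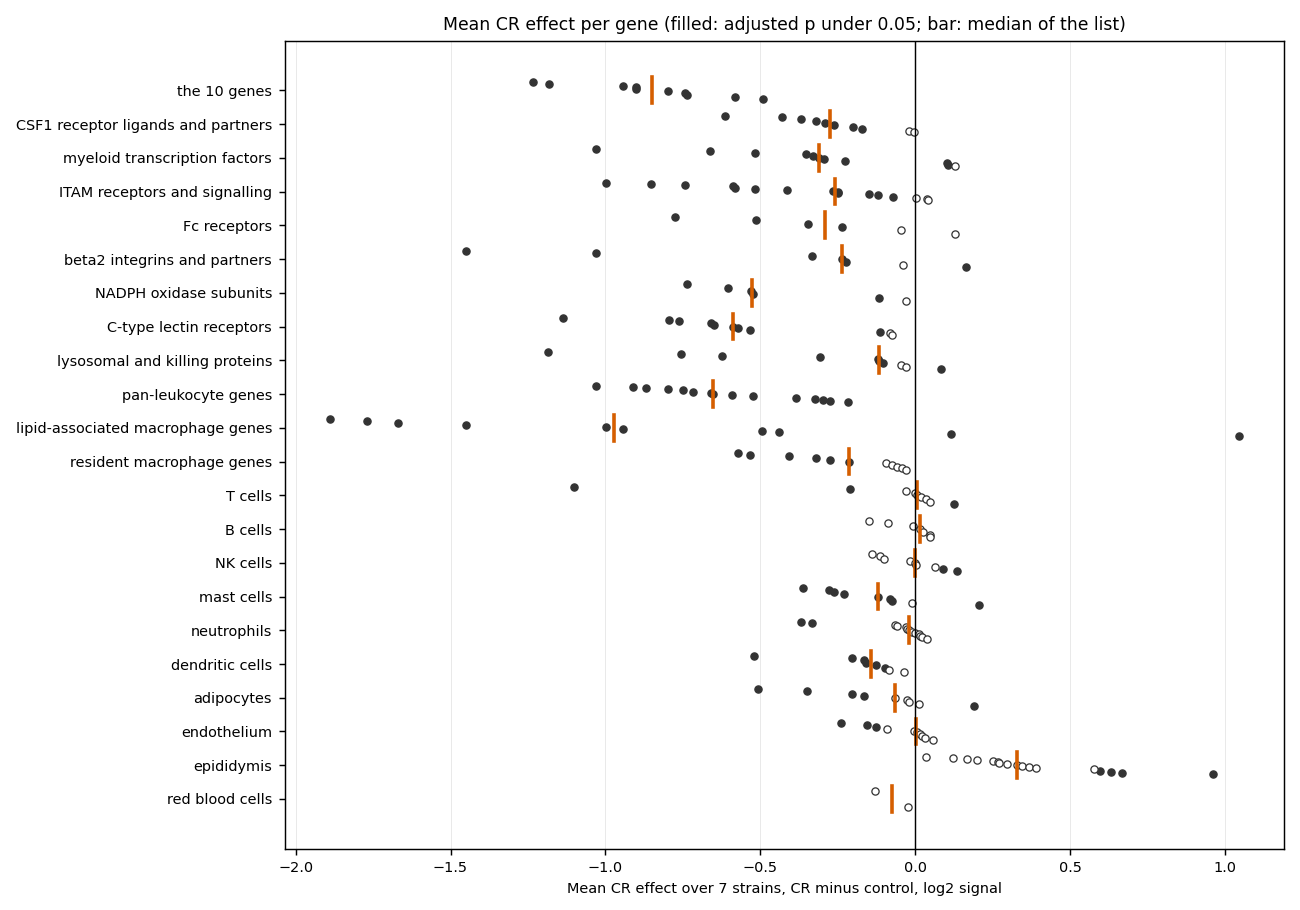
Mean CR minus control difference over the 7 strains in log2 signal (horizontal axis) for each gene of each list (rows), filled where the adjusted p was under 0.05, with an orange bar at the list's median. The 10 genes and the pan-leukocyte list lie wholly below 0, whereas the medians of the T cell, B cell, NK cell and neutrophil lists lie within 0.03 of 0.

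Markers of other cell types were counted in the same way. T cell markers were lower for 2 of 9 (Il7r, -1.10, and Cd2, -0.21) and higher for 1 (Cd247, 0.12), while the T cell receptor genes Cd3d, Cd3e and Cd3g were between 0.00 and 0.03 in size and did not pass. B cell markers were 0 lower and 0 higher of 7, and NK cell markers 0 lower and 2 higher of 9 (Gzma, 0.14, and Gzmb, 0.09). Of 13 neutrophil markers 2 were lower, Csf3r (-0.37) and Mmp9 (-0.33), and the other 11 did not pass. In B6C3F1/J the count was 5 of 13 lower, where 16.4% of all genes were.

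Dendritic cell markers were lower for 6 of 8 and higher for 0 (Clec9a, -0.52, and Siglech, -0.17), with group means of the list between 6.51 and 7.13 in CR mice and between 6.56 and 7.39 in control mice. Mast cell markers were lower for 7 of 9 (Tpsb2, -0.26, and Mrgprb1, -0.23) and higher for 1 (Kit, 0.21), with group means between 6.20 and 7.07 in CR mice and between 6.52 and 7.18 in control mice. Adipocyte markers were lower for 4 of 9, among them Plin4 (-0.35) and Lep (-0.51), and higher for 1, Retn (0.19). Endothelial markers were lower for 3 of 10 (Tek, -0.24, and Cdh5, -0.16) and higher for 0, and red blood cell markers 0 of 2 in either direction. Epididymis markers were higher for 4 of 17, among them Gpx5 (0.96) and Spag11b (0.63). The part of these cell types in the results on the 10 genes was not tested.

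Lists of macrophage subtypes cross the 10 genes. Genes of lipid-associated macrophages were lower for 8 of 10, with a median of -0.97 (Gpnmb, -1.77, and Itgax, -1.45), and higher for 2, Fabp5 (1.04) and Lpl (0.12), which adipocytes express as well. Genes of resident macrophages were lower for 6 of 11 and higher for 0, with a median of -0.21 (Mrc1, -0.53, and Clec10a, -0.57).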

How the data were processed

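RNA of each mouse's WAT was hybridised to its own Affymetrix Mouse Gene 1.0 ST array. The deposited table holds log2 signals that the authors obtained with RMA-Sketch at gene level (Affymetrix Expression Console), a method that subtracts background, gives all arrays 1 distribution and combines the probes of a probe set. The version of that software, and the set of arrays it normalized jointly, are not given in the sources used here. RMA compresses low signals, so differences of dim genes are understated. Of 35556 probe sets, 21789 had 1 gene symbol in the platform annotation, 1621 had several, and for 12146 the annotation listed no gene. Of the first, 21698 were matched by Entrez ID to RefSeq (GRCm38.p6), which changed 0 symbols. Where a gene had several probe sets (999 genes) the brightest over all arrays was taken.

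Differences were tested with limma (3.58.1, R 4.3.3; lmFit, eBayes): on the 16 arrays of a strain for CR against control, on all 14 groups for the mean CR effect and its difference between strains, and on the 56 arrays of 1 diet for levels between strains. P-values were adjusted over all 19938 genes by Benjamini-Hochberg (for pairs of strains, over all pairs and genes together), with a threshold of 0.05. The labels call the mice biological replicates, and p-values measure the spread between these mice. The number of arrays limits the precision. The procedure was tested on simulated data. The 10 genes, the other lists and the naming rule (up to 2 genes per direction from each list by smallest p, plus the genes most like the 10) were chosen with earlier results of these data known. Alternatives covered the test, the model, a filter on dim genes, the choice of probe set, scaling, array weights (statmod 1.5.0), the variance trend, a replicate block and arrays or a strain left out. The choice to drop only arrays with clear epididymis signal, or CBA/J control mouse 2, was made after seeing the data. Plots used matplotlib 3.10.9.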

Additional observations from a re-analysis of the deposited data

Results flagged for a closer look

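In 15 of the 140 sets of 8 mice (1 gene in 1 group), 1 mouse lay further from the other 7 than Dixon's critical value of 0.526 allows, and chance alone flags about 1 in 20 sets, or 7. The sets are not independent, because 5 mice account for all 15. CBA/J control mouse 2 was the highest of its group in 9 of them, at 10.74 for Adgre1, 12.37 for Cd68, 9.54 for Clec7a, 10.82 for Csf1r, 11.55 for Cybb, 11.35 for Fcer1g, 12.48 for Lyz2, 10.44 for Mpeg1 and 11.7 for Tyrobp.

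C57BL/6J CR mouse 2 was the lowest of its group for Adgre1 (7.8) and Lyz2 (9.92), and CBA/J CR mouse 5 for Csf1r (8.68). These 2 mice also had the highest epididymis marker means of all arrays, 11.33 and 11.11, and the part of that signal in the low values was not tested. C3H/HeJ CR mouse 4 was the highest of its group for Csf1r (10.48) and Fcer1g (10.38), and 129S1/SvImJ CR mouse 8 the lowest for Fcer1g (8.4).

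The CR difference varied between strains for all 10 genes by limma's F-test (19.0% of all genes). The adjusted p was 1.6e-09 for Clec7a, 4.7e-09 for Mpeg1, 9.8e-09 for Cybb, 2.5e-07 for Tyrobp, 2.6e-07 for Cd68, 3.8e-06 for Adgre1, 6.1e-06 for Fcer1g, 0.00023 for Itgam, 0.00028 for Csf1r and 0.0009 for Lyz2.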

How the results depend on the processing

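Under all settings run, all 10 genes stayed lower in 129S1/SvImJ, B6C3F1/J, CBA/J and the mean over strains, and 0 passed in BALB/cJ. In C3H/HeJ 2 genes were lower under the t-test on the raw signal. In C57BL/6J leaving out the arrays that stand apart by epididymis markers or correlation left 1 CR array. The median difference of the 10 genes was then -0.433. In DBA/2J 4 were lower in 1 model of 14 groups, 1 with genes above the median signal and 8 with array weights, and leaving out 1 mouse gave 0 to 5, with 5 without control mouse 8 and 1 each without CR mouse 3 and control mouse 3. The causes were not tested. Differences near 0 changed sign without passing. Mpeg1 in BALB/cJ (0.026) was -0.0503 with array weights and -0.0517 to 0.142 with 1 mouse left out. Itgam in DBA/2J (0.010) was -0.0183 under the t-test, -0.0514 with array weights, -0.0463 without the arrays with clear epididymis signal and -0.0969 to 0.0799 with 1 mouse left out. The F-test for CR levels passed for 9 of 10 genes under 1 model of 14 groups, where 11773 of all 19938 genes passed.

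Whether replicate numbers pair the mice was not settled. Of 56 same-numbered pairs 18 had a correlation of deviations over 0.1 (median 0.026, range -0.363 to 0.55). The values of BALB/cJ pairs 3 and 4 were 0.55 and 0.527. Pairs with unlike numbers were not compared, so these values have no reference. With a replicate block 8 of the 10 genes were lower in C57BL/6J (1277 of all 19938 genes) and 8 in C3H/HeJ (1612). All 10 were lower in 129S1/SvImJ (2856 of all genes), B6C3F1/J (2808), CBA/J (2216) and the mean over strains (4445). In BALB/cJ (6 of all genes) and DBA/2J (56) 0 were lower.

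Counts over all genes moved too. In BALB/cJ 0 genes passed, against 272 in 1 model of 14 groups and 9 with array weights. In DBA/2J 177 passed, against 10 under the t-test and 1895 with array weights. In C57BL/6J 3331 passed, against 5415 with array weights, and in C3H/HeJ 3115, against 4814 with array weights. For the F-test of the CR difference 3789 passed, against 7675 with array weights. Centring arrays on their median left 2415 of 6633 calls lower in B6C3F1/J (3275 of 6824 before) and 1025 of 3113 in C57BL/6J (1458 of 3331), and quantile normalization 94 of 281 in DBA/2J (79 of 177).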
